A study of Mus musculus with 7 samples.

Results

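The matrix metalloproteases, the ADAMTS proteases and their inhibitors, the TIMPs, were followed in 7 libraries of whole abdominal aorta. Members were chosen by gene name alone, as rows named Mmp, Adamts or Timp followed by their number. This gave 46 of the 32544 genes listed, namely 23 Mmp, 19 Adamts and 4 Timp genes. The libraries came from male Apoe-/- mice, an atherosclerosis model without apolipoprotein E, kept on a high-fat diet for 12 weeks. There were 3 libraries titled ITA-NP and 4 titled control-NP, which are called ITA-LNP and control-LNP here. Both sets of mice lacked Apoe, ate the same diet and received 50 mg/kg of particles into a vein 1 time a week, so the particle given was the labelled difference. LNP usually stands for lipid nanoparticle, and ITA was taken from the series title to mean itaconate, a metabolite that activated macrophages make. No library of untreated mice or of mice with Apoe was analysed here. Whether the libraries come from different mice is not in the labels. The p-values below therefore reflect the spread among libraries, which may be technical in part.

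Matrix metalloproteases are zinc proteases that cut collagens, elastin and other matrix proteins. Most are secreted as inactive precursors, while the membrane types stay on the cell surface. ADAMTS proteases carry thrombospondin repeats, and several cut the large proteoglycans versican and aggrecan or trim procollagen. TIMPs are small secreted proteins that bind the active site of these proteases. In atherosclerotic arteries, smooth muscle cells, fibroblasts, endothelial cells and macrophages make different members, and neutrophils store a few of them in granules.

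The libraries were made from the 3′ ends of mRNA, so a level does not depend on transcript length and genes can be compared on 1 scale. Levels are given in CPM, reads of a gene per 1000000 reads counted in that library. The ITA-LNP libraries held 6375381 to 7281721 reads and the control-LNP libraries 5077073 to 6688872. A gene at 0 reads could still lie at up to 3 reads, or 0.412 to 0.591 CPM depending on the library, and this limit covers counting error only. The groups differed in the tissue they held. Summed over 10 smooth muscle markers, the ITA-LNP libraries had 17614 to 21236 CPM and the control-LNP libraries 159 to 468 CPM, although all are labelled aorta. In the control-LNP libraries 9 of those 10 markers were detected every time and none was absent from all 4. The 8 structural matrix genes summed to 22730.4 to 26054 CPM in ITA-LNP and 136 to 275 CPM in control-LNP libraries. Platelet markers went the other way, at 87.5 to 169.6 CPM in ITA-LNP and 4810.4 to 6243 CPM in control-LNP libraries, as did B cell markers (7.28 to 32.9 and 601 to 1953 CPM). Fewer cells of a type and less RNA per cell cannot be told apart in such bulk libraries, and the share of tissue and blood cannot be told apart from the treatment. Control-LNP replicate 2 differed from the rest of its group. It had reads of 10846 genes, and control-LNP replicates 1, 3 and 4 had reads of 14232 to 15333. Results that change without it are given both ways.

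Of the 46 members, 26 reached the level needed for testing (a mean log2(CPM + 1) of at least 1), 8 had reads but stayed below it and 12 had none. Among the 26 tested, 17 rose with ITA-LNP and 2 fell at an adjusted p under 0.05. Over all 12636 genes tested, 10.3% were higher and 5.15% lower. A member could pass the level through the group in which it was high, so these counts describe the tested members only. The median log2 fold change of the 26 was 4.04, or 4.12 with the 1 gene at 0 reads in all control-LNP libraries set to its bound, and that of all genes tested was 0.15. By family, 8 of 13 Mmp genes rose and 2 fell, 5 of 9 Adamts genes rose, and 4 of 4 Timp genes rose. The groups did not overlap for 19 members that were higher and 2 that were lower with ITA-LNP, while over all genes tested these shares were 19.1% and 10.7%. Without control-LNP replicate 2, 18 members were higher and 2 lower, 17 and 2 of them the same genes, and over all genes 15.4% were higher and 16% lower. With each library centred on its median, 12 members were higher and 1 lower, the calls of Mmp8, Mmp12, Mmp16, Mmp23, Adamts8 and Adamts15 being lost. That scaling moved the median of all genes to -0.98 and the calls over all genes to 741 higher and 1249 lower, in place of 1306 and 651.

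**Figure D1:**
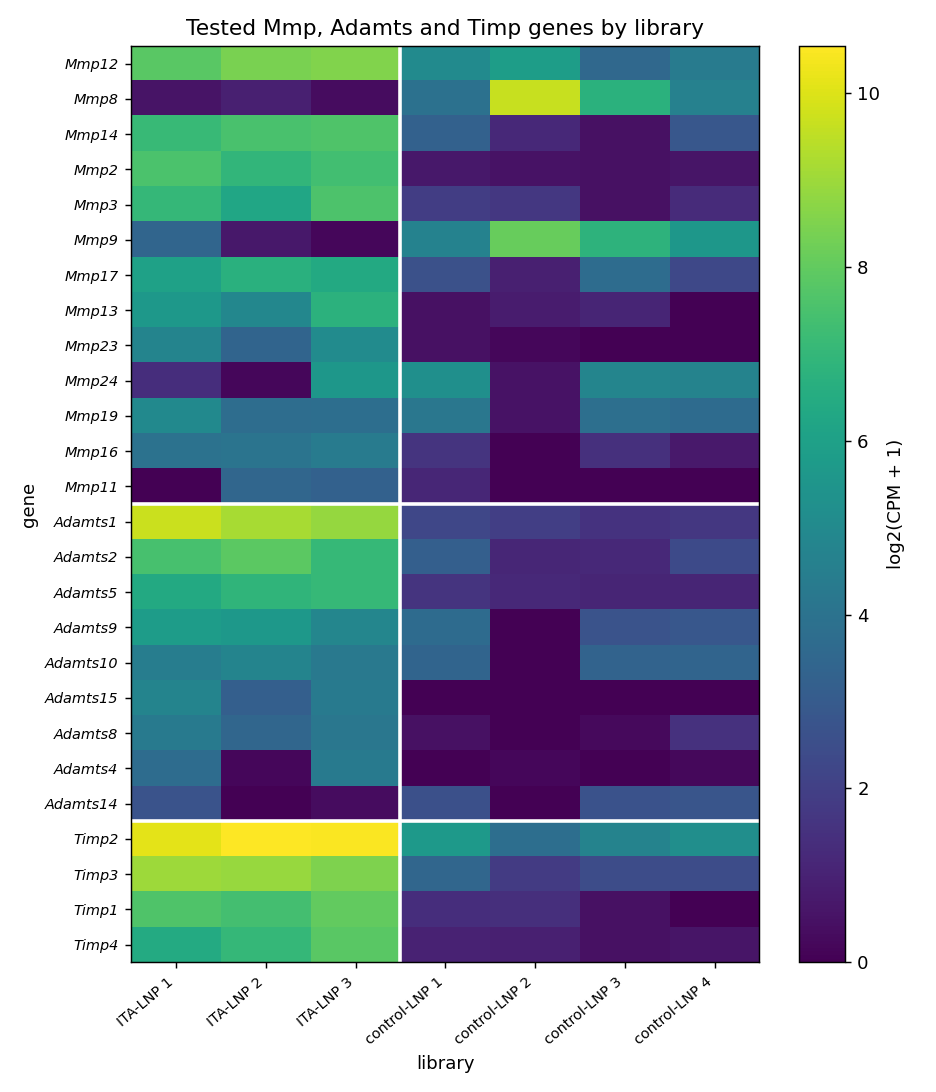
Levels of the 26 tested members, as log2(CPM + 1), with 1 row per gene and 1 column per library. ITA-LNP libraries are left of the vertical white line and control-LNP libraries right of it, and rows are grouped as Mmp, Adamts and Timp. Most rows are brighter on the left, while Mmp8 and Mmp9 are brighter on the right, most of all in control-LNP replicate 2 (797 and 270.0 CPM).

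The 4 inhibitors rose, led in level by Timp2, the most abundant member in each ITA-LNP library. Timp2 (chromosome 11, 118301069 to 118355740, mm10), which blocks metalloproteases and also helps to activate the Mmp2 precursor, was at 1118, 1494 and 1449 CPM in ITA-LNP libraries and at 49.8, 13.0, 25.6 and 36.2 CPM in control-LNP libraries. No control-LNP library came near the lowest ITA-LNP library, and Timp2 rose by 5.54 ± 0.49 on the log2 scale (error is the SE, adjusted p = 0.000129 by limma). Timp1 (chromosome X, 20870166 to 20874735), a soluble inhibitor that many cells make on injury, was at 201, 168 and 254 CPM in ITA-LNP and 1.58, 1.64, 0.385 and 0 CPM in control-LNP libraries. The control-LNP values came from 21 reads in all, and Timp1 rose by 6.88 ± 0.80 (adjusted p = 0.000528). Timp4 (chromosome 6, 115241892 to 115252205), the inhibitor known from heart and vessels, was at 85.01, 129.97 and 231 CPM in ITA-LNP and 0.985, 0.897, 0.385 and 0.492 CPM in control-LNP libraries, a log2 fold change of 6.37 ± 0.81 (adjusted p = 0.00086). The 3 ITA-LNP libraries differed more for Timp4, relative to the mean, than for Timp1 or Timp2. The SD was 74.9 CPM around a mean of 149 CPM for Timp4, 43.1 around 208 CPM for Timp1 and 205 around 1354 CPM for Timp2. No Timp call was lost in any of the 18 alternative settings.

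Timp3 needs a second row beside it. Its product, unlike the other TIMPs, binds to the matrix and also inhibits ADAMTS proteases. The gene (chromosome 10, 86300372 to 86349506, plus strand) lies inside Syn3, which runs on the minus strand from 86055125 to 86498896 and encodes synapsin III, a protein of nerve endings. The row named Timp3 held 504, 484 and 361 CPM in ITA-LNP and 10.2, 2.54, 4.42 and 4.43 CPM in control-LNP libraries (6.25 ± 0.63, adjusted p = 0.000248). The row named Syn3 held 4281, 4489 and 4731 CPM in ITA-LNP and 48.1, 38.4, 21.5 and 31.2 CPM in control-LNP libraries (7.03 ± 0.35, adjusted p = 5.84e-06). Timp3 made up 10.5%, 9.73% and 7.09% of their sum in ITA-LNP libraries and 17.6%, 6.20%, 17.0% and 12.4% in control-LNP libraries, so most reads of the pair stood in the Syn3 row. GENCODE M21 gives the last exon of Timp3 3802 bases, and the final 1733 of them, 86347774 to 86349506, are also exon of Syn3. Those bases reach the 3′ end of Timp3, where 3′ libraries take their reads. How strand was counted is not given in the sources used here, so reads of Timp3 and Syn3 cannot be told apart. Together they summed to 4785, 4972 and 5092 CPM in ITA-LNP and 58.3, 41.0, 26.0 and 35.6 CPM in control-LNP libraries. That sum was above the Timp2 level in every ITA-LNP library, whereas the Timp3 row alone was below it. The other synapsin genes, which also hold a Timp gene, were low. Syn1, around Timp1, was at 0.157, 13.0 and 0.137 CPM in ITA-LNP and 1.38, 0, 0.192 and 0.164 CPM in control-LNP libraries. Syn2, around Timp4, was at 4.39, 23.1 and 3.16 CPM in ITA-LNP and 0, 0, 0 and 0.164 CPM in control-LNP libraries. Timp4 and Syn2 share 90 exon bases, 2254 bases from the 3′ end of Timp4, and Timp1 and Syn1 share none.

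**Figure D2:**
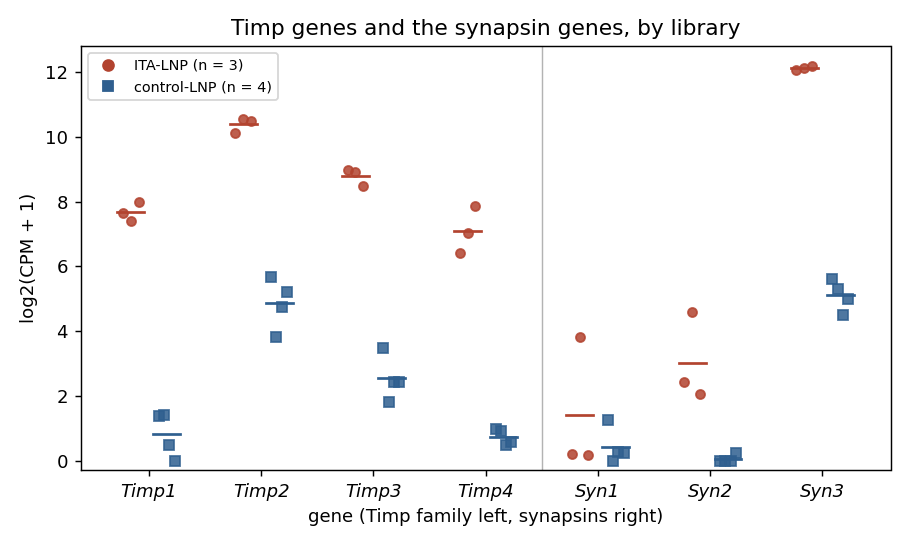
Levels, as log2(CPM + 1), of the 4 Timp genes and the 3 synapsin genes that surround Timp1, Timp4 and Timp3. Each point is a library, circles for ITA-LNP (n = 3) and squares for control-LNP (n = 4), and bars are group means. The Syn3 row lies above every Timp row in the ITA-LNP libraries, at 4281 to 4731 CPM, while Syn1 and Syn2 stay at or below 23.1 CPM.

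Among the metalloproteases, the widely made gelatinase Mmp2 and several membrane-bound members rose. Mmp2 (chromosome 8, 92827291 to 92853420), which cuts type IV collagen and gelatin, was at 189, 123 and 162 CPM in ITA-LNP and 0.591, 0.449, 0.385 and 0.492 CPM in control-LNP libraries. The control-LNP level rested on 3, 3, 2 and 3 reads, and the log2 fold change was 6.73 ± 0.77 (adjusted p = 0.000512). Mmp14 (chromosome 14, 54431612 to 54445364), the membrane protease that activates the Mmp2 precursor, was at 136, 183 and 198 CPM in ITA-LNP and 8.67, 1.35, 0.385 and 6.23 CPM in control-LNP libraries (5.46 ± 0.88, adjusted p = 0.00265). With Timp2, both other partners of that activation step were thus higher in every ITA-LNP library than in any control-LNP library. Mmp17, anchored to the membrane by a lipid, was at 64.9, 103 and 83.2 CPM in ITA-LNP and 5.12, 0.897, 12.3 and 3.94 CPM in control-LNP libraries (3.99 ± 0.86, adjusted p = 0.011). With ITA-LNP replicate 2 or 3 removed, Mmp17 no longer passed (highest adjusted p 0.0599). Mmp16, a further membrane type, was lower in level, at 14.7, 15.8 and 20.2 CPM in ITA-LNP and 1.97, 0, 1.73 and 0.656 CPM in control-LNP libraries (3.21 ± 0.83, adjusted p = 0.0264). Mmp16 no longer passed when ITA-LNP replicate 1 or 3, or any control-LNP library but replicate 2, was removed (highest adjusted p 0.109). It also missed with limma-voom on the recovered reads, without a filter and with a pseudocount of 0.25 CPM (adjusted p = 0.0548, 0.0637 and 0.0602), and passed with limma-voom on median-ratio size factors (0.0207). Mmp23, a membrane-bound member with an unusual C-terminal domain, was at 26.4, 9.58 and 33.0 CPM in ITA-LNP and 0.394, 0.150, 0 and 0 CPM, 3 reads in all, in control-LNP libraries (4.25 ± 0.80, adjusted p = 0.00548).

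**Figure D3:**
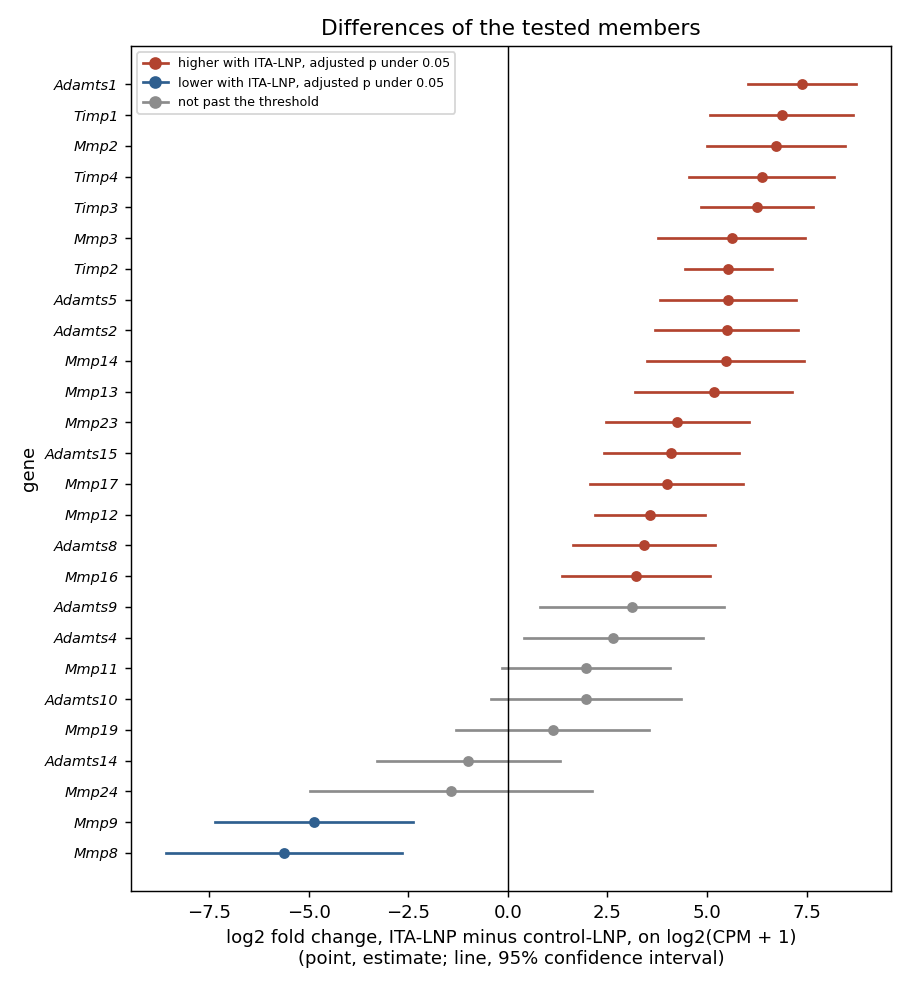
Log2 fold changes of the 26 tested members, ITA-LNP minus control-LNP on the log2(CPM + 1) scale, with points as estimates and lines as 95% confidence intervals from limma. Colour marks members past the threshold. They run from Adamts1 at 7.39 to Mmp8 at -5.63.

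A run of 10 Mmp genes on chromosome 9, over 427 kb from 7272514 to 7699585, held members that rose, a member that fell and silent members. In chromosomal order they are Mmp13, Mmp12, Mmp1b, Mmp3, Mmp1a, Mmp10, Mmp8, Mmp27, Mmp20 and Mmp7. Mmp12, the macrophage elastase, was the most abundant Mmp gene in each ITA-LNP library, at 232, 339 and 376 CPM, and was at 32.1, 57.9, 10.8 and 19.7 CPM in control-LNP libraries. It rose by 3.56 ± 0.62 (adjusted p = 0.00372), and unlike Mmp2 it kept 163, 387, 56 and 120 reads in the control-LNP libraries. Mmp12 lost its call with each library centred on its median (adjusted p = 0.236). Mmp3, a stromelysin that cuts proteoglycans and activates other precursors, was at 131, 73.7 and 195 CPM in ITA-LNP and 2.76, 2.24, 0.385 and 1.48 CPM in control-LNP libraries (5.61 ± 0.82, adjusted p = 0.0017). Mmp13, a collagenase of rodents that cartilage and macrophages also make, was at 48.9, 28.3 and 108 CPM in ITA-LNP and 0.394, 0.748, 1.15 and 0 CPM in control-LNP libraries (5.16 ± 0.88, adjusted p = 0.00341). Mmp27 was below the level for testing, with 0, 8.55 and 11.5 CPM in ITA-LNP libraries and 0 reads in all 4 control-LNP libraries. Its ITA-LNP mean was 12.7 times the mean of the 3-read limits of the control-LNP libraries, and the groups overlapped at 0. Mmp8, next to Mmp27, went the opposite way, as described below for the neutrophil proteases. Mmp1a, Mmp1b, Mmp10, Mmp20 and Mmp7 had 0 reads in all 7 libraries. Mmp12 shares 157 exon bases with Mmp1b on the other strand, 178 bases from its 3′ end.

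**Figure D4:**
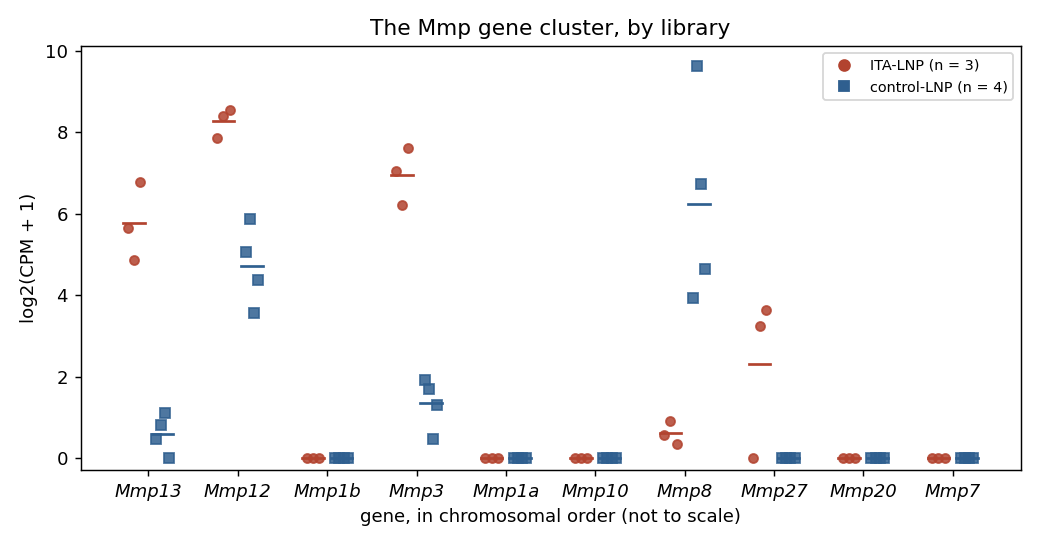
Levels, as log2(CPM + 1), of the 10 Mmp genes in their order on chromosome 9 (spacing not to scale). Circles are ITA-LNP libraries (n = 3), squares control-LNP libraries (n = 4) and bars group means. Mmp13, Mmp12 and Mmp3 are higher in ITA-LNP libraries, Mmp8 is higher in control-LNP libraries, and 5 genes lie at 0 throughout.

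Most of the macrophage markers, like Mmp12, rose with ITA-LNP. Of 8 markers tested, 5 rose and 1 fell, and they summed to 1121, 1406 and 1856 CPM in ITA-LNP and 537, 269.7, 245 and 243 CPM in control-LNP libraries, with no marker absent from all libraries of a group. Gpnmb, a marker of lipid-laden macrophages, was at 645, 1009 and 1506 CPM in ITA-LNP and 17.3, 5.08, 7.50 and 8.20 CPM in control-LNP libraries. This gene alone held most of the marker sum in each ITA-LNP library, so that sum says little of the other markers. The marker that fell was Csf1r, the receptor for a macrophage growth factor, at 57.9, 29.0 and 58.6 CPM in ITA-LNP and 477, 150.1, 206 and 201 CPM in control-LNP libraries. In the control-LNP group the marker sum was highest in replicate 1 and Mmp12 in replicate 2. Cartilage-like markers, among them Acan and Col2a1, were higher with ITA-LNP, as Mmp13 was. Of 7 tested, 6 rose. They summed to 1589, 1347 and 1430 CPM in ITA-LNP and 22.5, 47.1, 15.0 and 13.3 CPM in control-LNP libraries. That sum was highest in ITA-LNP replicate 1 and control-LNP replicate 2, whereas Mmp13 was highest in replicate 3 of each group. Smooth muscle and structural matrix genes rose as well, so a rise beside Mmp13 was not particular to cartilage-like markers. The part of macrophages and of cartilage-like cells in the Mmp12 and Mmp13 levels was not tested.

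The start regions of the cluster are shown because 7 of its 10 genes carry the AP-1 site TGAGTCA (also read as TGACTCA on the other strand), the classic element of stromelysin and collagenase promoters. RefSeq windows of 300 bases, 250 before to 50 after the start (GRCm38.p6), were found for 32 of the 46 members. The site was in 5.20% of all 32851 windows, and in 0 of the 22 members with a window outside the cluster. TATAAA, the TATA element, on either strand, was in 13.6% of all windows and in 9 of the 10 cluster genes. The 2 motifs share no bases in the windows below, where capitals mark both, and Mmp8 has TATAAA on the other strand only. The windows of 3 genes that rose, of silent Mmp10 and of Mmp8, which fell, are as follows.
Mmp13, chr9:7272264-7272563, plus strand: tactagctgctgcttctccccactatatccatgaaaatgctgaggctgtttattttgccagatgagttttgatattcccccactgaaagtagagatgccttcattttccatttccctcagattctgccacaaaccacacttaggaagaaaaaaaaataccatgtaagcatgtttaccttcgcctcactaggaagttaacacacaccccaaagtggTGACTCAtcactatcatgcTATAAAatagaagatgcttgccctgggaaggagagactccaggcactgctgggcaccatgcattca
Mmp12, chr9:7347124-7347423, plus strand: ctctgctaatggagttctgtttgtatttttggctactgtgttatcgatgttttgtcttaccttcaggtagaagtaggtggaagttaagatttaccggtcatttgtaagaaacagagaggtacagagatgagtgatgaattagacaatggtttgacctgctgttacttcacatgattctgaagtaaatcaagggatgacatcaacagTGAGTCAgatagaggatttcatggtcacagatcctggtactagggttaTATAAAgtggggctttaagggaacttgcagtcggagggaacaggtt
Mmp3, chr9:7445572-7445871, plus strand: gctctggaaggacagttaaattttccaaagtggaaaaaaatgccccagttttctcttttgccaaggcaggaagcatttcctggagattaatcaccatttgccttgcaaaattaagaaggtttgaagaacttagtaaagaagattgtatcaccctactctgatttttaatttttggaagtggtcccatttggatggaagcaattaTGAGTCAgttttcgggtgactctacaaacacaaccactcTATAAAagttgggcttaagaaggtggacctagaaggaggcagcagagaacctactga
Mmp10, chr9:7502092-7502391, plus strand: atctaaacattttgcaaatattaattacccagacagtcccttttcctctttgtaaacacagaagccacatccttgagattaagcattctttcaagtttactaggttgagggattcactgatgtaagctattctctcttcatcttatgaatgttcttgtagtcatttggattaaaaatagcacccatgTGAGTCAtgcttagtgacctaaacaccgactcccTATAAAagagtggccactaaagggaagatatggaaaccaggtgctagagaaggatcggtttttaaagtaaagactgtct
Mmp8, chr9:7558179-7558478, plus strand: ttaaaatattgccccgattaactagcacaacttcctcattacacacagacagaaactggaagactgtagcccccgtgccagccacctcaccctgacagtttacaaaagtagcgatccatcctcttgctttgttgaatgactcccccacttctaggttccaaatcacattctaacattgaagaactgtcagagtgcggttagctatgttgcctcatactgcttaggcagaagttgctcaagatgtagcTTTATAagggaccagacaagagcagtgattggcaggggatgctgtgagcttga

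In Mmp13, Mmp12, Mmp3 and Mmp10 the AP-1 letters begin 35, 44, 46 and 63 bases before the start. Mmp8 has none in its window, and Mmp10, Mmp1a, Mmp1b and Mmp7, which do have them, had no reads. Presence of the letters therefore did not separate detected from silent genes. A match is a run of letters and says nothing of binding.

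Mmp8 and Mmp9, which neutrophils store, fell. Mmp25, a neutrophil membrane type, stayed below the level for testing and had 0 reads in control-LNP replicate 2. Mmp8 (chromosome 9, 7558456 to 7568485), the neutrophil collagenase, was at 0.471, 0.884 and 0.275 CPM in ITA-LNP and 14.4, 797, 105 and 23.8 CPM in control-LNP libraries. Mmp9 (chromosome 2, 164940780 to 164955850), the gelatinase of neutrophil granules that macrophages also make, was at 9.72, 0.589 and 0.137 CPM in ITA-LNP and 24.6, 270.0, 111 and 47.4 CPM in control-LNP libraries. The groups did not overlap for either gene, but the control-LNP libraries differed widely, with an SD of 377 CPM around a mean of 235 CPM for Mmp8 and of 111 around 113 CPM for Mmp9. The log2 fold changes were -5.63 ± 1.32 for Mmp8 (adjusted p = 0.0168) and -4.86 ± 1.11 for Mmp9 (adjusted p = 0.0148). Neutrophil markers moved with them. The 12 summed to 158, 211 and 95.6 CPM in ITA-LNP and 929, 26386, 10181 and 1046 CPM in control-LNP libraries, and 4 of the 7 tested fell. Elane was at 0 in every library. Platelet (6 of 7 tested), B cell (5 of 7), T cell (4 of 7) and erythroid (4 of 7) markers fell as well. A fall beside Mmp8 and Mmp9 was thus not particular to neutrophil markers. Over all genes tested 5.15% were lower. In falling order the control-LNP libraries ran 2, 3, 4, 1 for Mmp8, for Mmp9 and for the neutrophil marker sum. The part of neutrophil number in Mmp8 and Mmp9 was not tested. Without control-LNP replicate 2 the fold changes were -4.49 and -4.27 and both calls held. Without control-LNP replicate 1 that of Mmp8 was -6.39, and without ITA-LNP replicate 1 or 3 that of Mmp9 was -5.86 or -4.24. Removing any 1 of the ITA-LNP libraries, or control-LNP replicate 3, ended the call of Mmp8 (highest adjusted p 0.0632). Mmp9 was lost in the same way on removal of ITA-LNP replicate 2, ITA-LNP replicate 3 or control-LNP replicate 3 (highest adjusted p 0.0620). With limma-voom on the recovered reads neither passed, and with median-ratio size factors Mmp9 alone did. Once control-LNP replicate 2 was left out, both passed with limma-voom.

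The remaining tested Mmp genes did not pass. Mmp24, a membrane type best known from neurons, was at 1.57, 0.147 and 47.5 CPM in ITA-LNP and 36.8, 0.449, 26.9 and 25.1 CPM in control-LNP libraries. ITA-LNP replicate 3 was thus the highest of all 7 and control-LNP replicate 2 was near 0, so the groups overlapped (-1.43 ± 1.58, adjusted p = 0.616, 95% interval -4.98 to 2.11). The difference of Mmp24 was -0.34 without ITA-LNP replicate 2, -3.04 without ITA-LNP replicate 3 and -2.53 without control-LNP replicate 2, and it passed in none of these. Mmp19, which endothelial, smooth muscle and myeloid cells make, was at 31.2, 12.5 and 13.0 CPM in ITA-LNP and 17.3, 0.449, 13.3 and 12.0 CPM in control-LNP libraries. Its difference of 1.13 ± 1.08 (adjusted p = 0.556, interval -1.29 to 3.55) shrank to 0.28 without control-LNP replicate 2 and was -0.0015 with median centring. Mmp11, a stromelysin by name that stromal cells make, ranged from 0 to 10.02 CPM in ITA-LNP and from 0 to 1.18 CPM in control-LNP libraries (adjusted p = 0.203). It passed without ITA-LNP replicate 1, the library at 0 (3.09, adjusted p = 0.0233). The 3′ ends of Mmp24 and Mmp19 lie in exons of BC029722 and Tmem198b on the other strand, over 637 and 789 bases, so their reads cannot be told apart either. BC029722 was at 1.10, 6.93 and 4.94 CPM in ITA-LNP and 5.12, 0.150, 16.5 and 7.71 CPM in control-LNP libraries. Tmem198b was at 74.5, 38.3 and 75.4 CPM in ITA-LNP and 75.8, 185, 42.1 and 47.2 CPM in control-LNP libraries.

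Of the 9 ADAMTS proteases tested, 5 rose and 4 did not pass. Adamts1 (chromosome 16, 85793827 to 85803113), which cuts versican and is made by vessel wall cells, was at 836, 581 and 463 CPM in ITA-LNP and 3.74, 2.84, 1.92 and 2.30 CPM in control-LNP libraries. Its log2 fold change of 7.39 ± 0.60 (adjusted p = 8.89e-05) was the largest among the tested members with a pseudocount of 1 CPM. With 0.25 CPM it was 7.73, below Timp1 at 7.90 and Mmp2 at 7.75, so the order of these genes depends on the pseudocount. Adamts5 (chromosome 16, 85856173 to 85901828), an aggrecanase whose gene lies on the same strand, with a gap of 53.1 kb to Adamts1, was at 83.6, 117 and 131 CPM in ITA-LNP and 1.97, 1.35, 1.15 and 1.15 CPM in control-LNP libraries (5.53 ± 0.76, adjusted p = 0.00132). The neighbours ran in opposite order over the ITA-LNP libraries, Adamts1 being highest and Adamts5 lowest in replicate 1. Adamts2 (chromosome 11, 50602084 to 50807573), which removes the N-terminal propeptide of fibrillar procollagens, was at 176, 234 and 132 CPM in ITA-LNP and 8.27, 1.20, 1.35 and 4.10 CPM in control-LNP libraries (5.49 ± 0.80, adjusted p = 0.00166). Genes of its substrates, Col1a1, Col1a2 and Col3a1, are in the structural matrix list, of which 8 of 8 rose. Of the smooth muscle markers 10 of 10 rose as well, so a rise beside Adamts2 was not particular to its substrates.

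A second pair of neighbours rose at lower levels. Adamts15, which cuts versican, was at 26.4, 8.10 and 19.2 CPM in ITA-LNP libraries and had 0 reads in all 4 control-LNP libraries. Its ITA-LNP mean was 33.9 times the mean 3-read limit of the control-LNP libraries, and the gene passed by limma (adjusted p = 0.00492). Adamts8, across a gap of 20.1 kb and known for blocking vessel growth, was at 18.5, 10.2 and 16.9 CPM in ITA-LNP and 0.394, 0, 0.192 and 1.80 CPM in control-LNP libraries (3.42 ± 0.80, adjusted p = 0.0163). Removal of control-LNP replicate 1 or 3 ended the call of Adamts8 (highest adjusted p 0.0853). For both genes ITA-LNP replicate 2 was the lowest of its group.

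The other tested Adamts genes were less separated. Adamts9, a versican-cutting protease of vessels and secretory cells, was at 56.0, 48.8 and 27.5 CPM in ITA-LNP and 12.0, 0, 5.58 and 6.23 CPM in control-LNP libraries. The groups did not overlap, the difference of 3.12 ± 1.03 did not pass (adjusted p = 0.0751), and with control-LNP replicate 2 removed the gene passed at 2.34 (adjusted p = 0.0127). Adamts10, which binds fibrillin microfibrils, was at 21.2, 25.9 and 18.3 CPM in ITA-LNP and 9.65, 0, 9.23 and 9.51 CPM in control-LNP libraries (1.96 ± 1.06, adjusted p = 0.261). Its groups did not overlap, and without control-LNP replicate 2 the difference was 1.11 and again did not pass (adjusted p = 0.132). Adamts4, the other main aggrecanase, was at 12.4, 0.147 and 18.8 CPM in ITA-LNP and 0, 0.150, 0 and 0.164 CPM in control-LNP libraries. ITA-LNP replicate 2 overlapped the control-LNP libraries on 1 read (2.64 ± 1.00, adjusted p = 0.115), and without it the gene passed (3.92, adjusted p = 0.00619). Adamts14, a procollagen protease like Adamts2, ranged from 0 to 5.49 CPM in ITA-LNP and from 0 to 5.90 CPM in control-LNP libraries (-0.99 ± 1.02, adjusted p = 0.591). Its difference was -1.83 without ITA-LNP replicate 1 and -1.66 without control-LNP replicate 2.

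Of the members below the level for testing, most were seen in control-LNP libraries only. Over all genes, control-LNP replicates 1, 3 and 4 also had reads of more genes (14232 to 15333) than the ITA-LNP libraries (12226 to 12856). The share of all genes seen in control-LNP libraries only was not counted. Adamts6 had 0 reads in ITA-LNP libraries and 20, 0, 6 and 14 reads in control-LNP libraries. Mmp28 had 0 reads against 9, 0, 15 and 1, and Adamts7 0 reads against 5, 0, 6 and 0. The control-LNP means of Adamts6, Mmp28 and Adamts7 were 4.18, 2.73 and 1.21 times the mean 3-read limit of the ITA-LNP libraries. Those ratios leave out counting error and spread on the control-LNP side, and the groups overlapped for each gene. Mmp25, a neutrophil membrane type, had 0 reads in ITA-LNP and 4 in control-LNP libraries, Mmp15 0 and 2, and Mmp21 0 and 1. Adamts17 had 4 reads in ITA-LNP and 22 in control-LNP libraries. The 3′ end of Mmp28 lies in exon of 1700020L24Rik on the other strand, over 466 bases, and Adamts7 shares 122 exon bases with Tbc1d2b, 177 bases from its 3′ end. Control-LNP replicate 2 held 0 reads of Adamts6, Mmp28, Adamts7, Mmp25, Mmp15, Mmp21 and Adamts17. At 0 in all 7 libraries were 7 Adamts genes (Adamts3, 12, 13, 16, 18, 19 and 20) beside the 5 Mmp genes of the chromosome 9 run. Adamts13, which cuts von Willebrand factor in plasma, is made mainly in liver.

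The make-up of each family differed between the groups. Mmp genes summed to 886, 908 and 1256 CPM in ITA-LNP and 148, 1131, 286 and 141 CPM in control-LNP libraries. The ratio of group means was 2.38, or 5.30 without control-LNP replicate 2. Without Mmp8 and Mmp9 the sums were 876, 907 and 1256 CPM in ITA-LNP and 109, 64.6, 71.0 and 70.0 CPM in control-LNP libraries. Those 2 genes made up 1.15%, 0.162% and 0.0328% of the Mmp sum in ITA-LNP libraries and 26.3%, 94.3%, 75.2% and 50.4% in control-LNP libraries. Mmp12 held 26.2%, 37.4% and 29.9% in the ITA-LNP libraries, more than any other Mmp gene there. In each control-LNP library Mmp8 and Mmp9 together held more than any other single Mmp gene. Taken singly in control-LNP replicate 1, Mmp24 (24.8%) and Mmp12 (21.6%) were above Mmp9 (16.6%) and Mmp8 (9.69%). In control-LNP replicate 4, Mmp24 (17.8%) was above Mmp8 (16.8%) and below Mmp9 (33.6%). Adamts genes summed to 1236, 1026 and 828 CPM in ITA-LNP and 47.9, 5.53, 27.3 and 35.3 CPM in control-LNP libraries. Adamts1 held 67.7%, 56.6% and 55.9% of that sum in ITA-LNP libraries. In control-LNP libraries it held 7.82%, 51.4%, 7.04% and 6.51%, and in all of them but replicate 2, which had 37 Adamts reads in all, Adamts9 and Adamts10 were above it. Timp genes summed to 1908, 2276 and 2295 CPM in ITA-LNP and 62.6, 18.1, 30.8 and 41.2 CPM in control-LNP libraries, leaving Syn3 out. Per read of an Mmp or Adamts gene there were 0.899, 1.18 and 1.10 Timp reads in ITA-LNP and 0.319, 0.0159, 0.0981 and 0.233 in control-LNP libraries. These ratios also leave out Syn3, whose row (4281 to 4731 CPM) was above the Timp sum in every ITA-LNP library. They therefore depend on how Timp3 and Syn3 reads were assigned. In control-LNP replicate 2 the ratio also rests on Mmp8 and Mmp9, which held most of the Mmp sum there.

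**Figure D5:**
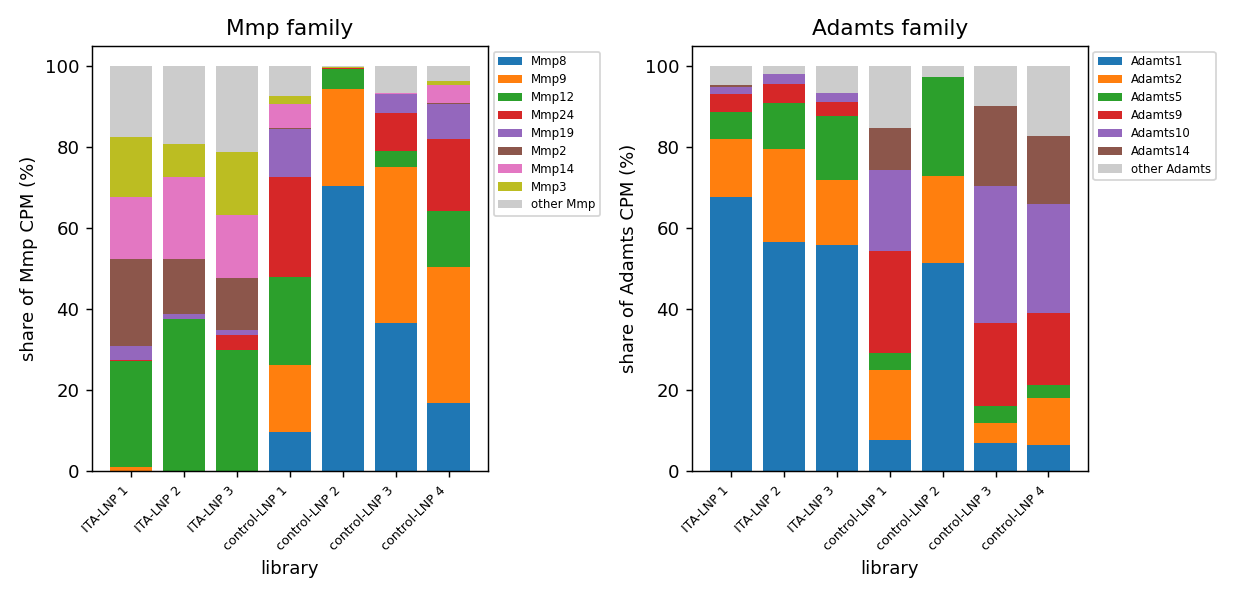
Share of each family's summed CPM held by its main members, in percent, for the Mmp (left panel) and Adamts (right panel) genes, with 1 bar per library. Grey is the sum of the other members. Mmp8 and Mmp9 hold 94.3% of the Mmp sum in control-LNP replicate 2 and up to 1.15% in ITA-LNP libraries, while Adamts1 holds 55.9% to 67.7% of the Adamts sum in ITA-LNP libraries.

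Set against wall markers, the members fell into a range. The control-LNP mean was 0.678% of the ITA-LNP mean for the median structural matrix gene (0.577% to 1.07% over the 8). It was 0.906% for the median smooth muscle marker (0.450% to 15.3% over the 10). Fibroblast markers had a median of 1.49% (0.594% to 46.2%) and endothelial markers one of 2.43% (0.222% to 147%). Mmp2, Adamts1, Timp1, Timp4 and Mmp23 lay at 0.304%, 0.431%, 0.434%, 0.464% and 0.592%, near or under that matrix range. Mmp13, Timp3, Adamts5 and Mmp3 lay at 0.929%, 1.20%, 1.27% and 1.29%. Those 9 include gelatinase, collagenase, stromelysin, aggrecanase and inhibitor genes alike. Adamts2, Timp2, Mmp14 and Adamts8 lay at 2.06%, 2.30%, 2.41% and 3.93%. Mmp16, Mmp17, Mmp12, Adamts9 and Adamts10 kept more than those, at 6.44%, 6.64%, 9.53%, 13.5% and 32.6%. These values lay within the wide ranges of the fibroblast and endothelial markers, and all but that of Adamts10 within the smooth muscle range. Ranges this wide do not place a member with a cell type. Of the other tested members that did not pass, Adamts4, Mmp11, Mmp19, Mmp24 and Adamts14 lay at 0.750%, 4.75%, 56.8%, 136% and 211%. Adamts15 was at 0 in the control-LNP libraries, and Mmp8 and Mmp9 were higher there. Without control-LNP replicate 2, Mmp16, Mmp17, Mmp12, Adamts9 and Adamts10 were at 8.59%, 8.50%, 6.60%, 18.0% and 43.4%. These percentages describe the libraries, and differences between members were not tested.

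Among genes that work with the proteases, more rose than fell. Of 45 partner genes, 37 were tested, 22 rose and 2 fell, where 10.3% and 5.15% of all genes tested did. In the plasminogen system, which activates several Mmp precursors, 3 of 6 rose. Serpine2, a protease inhibitor, was at 1368, 1111 and 1314 CPM in ITA-LNP and 100.1, 15.2, 46.7 and 61.0 CPM in control-LNP libraries (4.75 ± 0.57, adjusted p = 0.000668). Of the genes for membrane anchoring, activation and clearance, 2 of 7 rose and 2 fell. Reck, a membrane-anchored inhibitor of metalloproteases, rose by 5.29 ± 0.76 (adjusted p = 0.00155). Lrp1, the receptor that clears proteases and their inhibitors, rose by 3.76 ± 0.86 (adjusted p = 0.0151). The members that fell, Cd44 and Itgb3, were chosen after their values were seen. Cd44, a leukocyte adhesion receptor that can hold Mmp9, was at 274, 108 and 114 CPM in ITA-LNP and 519, 1237, 392 and 468 CPM in control-LNP libraries (-1.96 ± 0.49, adjusted p = 0.0224). Itgb3, an integrin chain of platelets, was at 82.8, 133 and 34.9 CPM in ITA-LNP and 374, 268, 243 and 298 CPM in control-LNP libraries (-1.99 ± 0.49, adjusted p = 0.0210). The groups overlapped for neither, and without ITA-LNP replicate 3 no partner was lower by limma (3 at an unadjusted p under 0.05). Of the ADAMTS-like genes, which lack the protease domain, 4 of 5 rose, led by Adamtsl5 (5.82 ± 0.81) and Adamtsl3 (5.05 ± 0.89). Of the membrane-bound ADAM proteases, 3 of 8 rose, led by Adam9 (5.15 ± 0.78) and Adam33 (4.15 ± 0.86). Of the substrates, 10 of 11 rose, led by the collagen genes Col3a1 (7.11 ± 0.32) and Col1a2 (7.35 ± 0.36). These lists share genes with the matrix and wall markers above, whose levels differ between the same libraries.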

How the data were processed

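RNA of whole abdominal aortas was sequenced as QuantSeq 3′ mRNA libraries, per the labels' protocols. Reads were placed on mm10, as the submitters' processing notes give it. For the aligner, read counter, annotation, strand setting and molecular identifiers nothing is stated in the labels used here. The authors deposited log10 values in 1 table of 32544 genes and 7 libraries. Their scale was worked out from the values: 10 to the value, minus 1, summed to 1000000 in each library and gave whole multiples of 1 step, with 100% of values whole within 0.01. They were therefore read as log10 of CPM + 1, and the steps gave the depth of each library. Groups and replicate numbers came from the sample titles.

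Tests used log2(CPM + 1). This pseudocount of 1 CPM understates the change of low genes. Genes with a mean of at least 1 were fitted with limma-trend (limma 3.58.1, R 4.3.3), ITA-LNP minus control-LNP over all 7 libraries without covariate, two-sided, with Benjamini-Hochberg adjustment over 12636 genes and a threshold of 0.05. The procedure was run on simulated counts, which held no outlying library and no difference in tissue content between the groups. That run says nothing of how such features affect the calls. Errors after ± are standard errors of the log2 fold change unless SD is written. Coordinates and exons came from GENCODE M21 (mm10), and promoter windows from RefSeq (GRCm38.p6). Members at a group mean of at least 10 CPM or past the threshold are given in every library, and the first 2 of each partner list by p are named. A gene that this rule names is not reported here. The members and lists were chosen with earlier results of these data known. Alternatives were other filters, pseudocounts, scalings, limma-voom, a replicate block and leaving out each library. Python 3.11.15, pandas 2.3.3, numpy 2.4.6 and matplotlib 3.10.9 were used.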

Additional observations from a re-analysis of the deposited data

Results flagged for a closer look

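For 5 of the 26 tested members, 1 of the 4 control-LNP libraries lay far from the other 3, with most of the group's range lying between it and its nearest neighbour (Dixon's 95% critical value, on the log2(CPM + 1) scale). Chance gives this for about 1 in 20 groups of values that are not tied. The share of all tested genes flagged by this rule was not counted. Control-LNP replicate 2 stood apart over all tested genes. Its correlations with the other control-LNP libraries were 0.607 to 0.625, and those among the others 0.933 to 0.949. Flags in that library are therefore not independent of each other. In 4 of the 5 the library was control-LNP replicate 2. It had 0 CPM of Adamts10, against 9.23 to 9.65 CPM in the other control-LNP libraries, and 0 CPM of Adamts14, against 4.92 to 5.90 CPM. It had 0.449 CPM of Mmp19, against 12.0 to 17.3 CPM, and 0.449 CPM of Mmp24, against 25.1 to 36.8 CPM. For Mmp11 it was control-LNP replicate 1, at 1.18 CPM from 6 reads, while the other 3 were at 0. With 3 equal values the gap fills the whole range whatever the fourth value is, so Mmp11 is not counted against the chance rate.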

How the results depend on the processing

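Of 459 fold changes of tested members recomputed over 18 alternatives, 418 kept their direction and their side of the threshold, 34 lost and 6 gained the call, and 1 turned its sign (Mmp19, -0.0015, median centring). Of the 19 called members, 11 passed in every alternative that tested them and 14 without each library in turn. Over all genes (1306 higher, 651 lower), median centring gave 741 and 1249, quantile normalization 1401 lower, voom with median-ratio size factors 1098 lower, median centring without control-LNP replicate 2 2548 lower and voom without it 2097 lower. Leaving out each library gave 984 to 1988 higher and 401 to 2065 lower genes, both highest without control-LNP replicate 2. Lower members (2) became 1 with median centring and with median-ratio voom, and 0 with limma-voom (2 at an unadjusted p under 0.05), and ranged from 0 to 2 without each library. Lower partners (2) became 1 with median centring and median-ratio voom, 5 and 4 with median centring and voom without control-LNP replicate 2, and ranged from 0 to 3 without each library. With the replicate number as a block there were 738 higher and 322 lower genes, 12 higher and 1 lower members, and 0 lower partners (2 unadjusted). Deviations of same-numbered libraries had correlations of -0.0173 to 0.00528, and all pairs across the groups lay between -0.0322 and 0.0257. Not every library correlated best with its own number. With 3 and 4 libraries in the groups, these values cannot show whether the numbers pair them. The median-ratio voom and both settings that combine a change with leaving out control-LNP replicate 2 were chosen after the data were seen. The planned quasi-likelihood count test was not run. Most called members had few control-LNP reads, so their fold changes rest on levels near the limit of detection.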
